A study of Mus musculus with 4 samples.

Results

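The genes described are 35 members of the translation and amino acid arm of the cell, taken by symbol from the deposited gene table of mouse small intestine at postnatal day 8. They are 20 cytosolic aminoacyl-tRNA synthetases and 15 genes of the ATF4 response, of 29011 genes in the table. These members and the other lists below were chosen with earlier results of these data known. Their counts set beside the shares of all tested genes are therefore not independent of the data. All 35 had a row and all 35 passed the filter on low values (a normalized count of at least 10 in at least 2 libraries), which 16415 genes passed in total. The RNA of the whole small intestine was sequenced in 2 groups of 2 libraries. The Lats1/2 KO libraries came from pups labelled as positive for Villin-Cre and deleted for Lats1 and Lats2. The control libraries came from pups without Cre, which per the design text carried floxed Lats1 and Lats2, although the genotype field of these samples reads as a deletion of both. Villin-Cre acts in the intestinal epithelium, so muscle, stroma, nerve, vessel and blood cells of the knockout tissue should keep both kinases, and no cell type was sorted.

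Aminoacyl-tRNA synthetases join each amino acid to its tRNA, and without them ribosomes stall. When uncharged tRNA, unfolded protein in the endoplasmic reticulum or other stress activates a kinase of the initiation factor eIF2, general translation slows while the mRNA of the transcription factor ATF4 is translated better. ATF4 then raises genes of amino acid synthesis and uptake, many synthetase genes and feedback genes such as Trib3, by binding DNA elements in which a C/EBP half-site and an ATF half-site are joined. Because ATF4 is controlled largely at translation, its mRNA level is a poor measure of its activity. Growth signalling through mTORC1 also raises ATF4 and its targets. In the neonatal intestine these enzymes supply a fast-growing epithelium that also makes proline, citrulline and arginine for the body.

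The promoters that hold the core of the ATF4 response element are shown because they mark, by sequence and not by expression, which members carry it next to the start of transcription. RefSeq promoter windows of build GRCm38.p6 (250 bases before to 50 bases after the start) were found for 27 members, namely 12 synthetases and all 15 ATF4 response genes. The letters searched were TGATGNAA on either strand, where N is any base. The core was present in 9 members, of which 5 were synthetases (Gars, Iars, Tars, Yars, Aars) and 4 were ATF4 response genes (Asns, Trib3, Chac1, Pycr1). Of all 27025 genes with a window, 4.51% held it. The windows are printed from 220 bases before to 30 bases after the RefSeq start, on the gene's own strand, with matches in capitals.
Gars: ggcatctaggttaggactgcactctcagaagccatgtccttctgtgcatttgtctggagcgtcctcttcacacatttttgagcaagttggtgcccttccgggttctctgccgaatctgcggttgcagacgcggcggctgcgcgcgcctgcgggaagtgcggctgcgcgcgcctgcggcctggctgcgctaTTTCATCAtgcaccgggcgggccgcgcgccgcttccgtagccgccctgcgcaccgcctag
Iars: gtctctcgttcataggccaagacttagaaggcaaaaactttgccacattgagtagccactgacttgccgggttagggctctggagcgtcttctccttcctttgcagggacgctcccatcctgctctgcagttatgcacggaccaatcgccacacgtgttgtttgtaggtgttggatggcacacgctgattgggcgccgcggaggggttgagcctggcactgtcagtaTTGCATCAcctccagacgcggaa
Tars: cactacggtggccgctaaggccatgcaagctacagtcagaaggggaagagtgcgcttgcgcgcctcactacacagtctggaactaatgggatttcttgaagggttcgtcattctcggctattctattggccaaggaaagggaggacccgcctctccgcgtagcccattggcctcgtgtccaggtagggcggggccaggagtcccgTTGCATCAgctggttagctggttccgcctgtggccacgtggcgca
Yars: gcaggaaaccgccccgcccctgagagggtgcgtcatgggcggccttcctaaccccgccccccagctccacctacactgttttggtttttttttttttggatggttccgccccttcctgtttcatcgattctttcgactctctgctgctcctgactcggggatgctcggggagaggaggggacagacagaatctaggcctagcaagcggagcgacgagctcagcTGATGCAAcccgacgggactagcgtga
Aars: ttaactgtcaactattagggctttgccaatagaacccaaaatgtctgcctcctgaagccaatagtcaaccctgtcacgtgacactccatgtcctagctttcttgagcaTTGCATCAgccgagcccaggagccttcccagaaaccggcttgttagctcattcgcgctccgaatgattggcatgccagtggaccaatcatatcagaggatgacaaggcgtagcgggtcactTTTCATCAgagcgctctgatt
Asns: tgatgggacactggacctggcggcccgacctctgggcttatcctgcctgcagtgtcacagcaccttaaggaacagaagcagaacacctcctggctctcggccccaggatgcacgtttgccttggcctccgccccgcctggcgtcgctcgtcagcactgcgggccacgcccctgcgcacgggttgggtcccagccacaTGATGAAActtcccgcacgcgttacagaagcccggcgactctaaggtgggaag
Trib3: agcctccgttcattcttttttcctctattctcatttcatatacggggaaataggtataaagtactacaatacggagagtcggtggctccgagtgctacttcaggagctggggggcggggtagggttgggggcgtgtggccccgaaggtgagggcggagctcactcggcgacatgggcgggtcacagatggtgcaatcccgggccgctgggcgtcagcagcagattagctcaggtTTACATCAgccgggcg
Chac1: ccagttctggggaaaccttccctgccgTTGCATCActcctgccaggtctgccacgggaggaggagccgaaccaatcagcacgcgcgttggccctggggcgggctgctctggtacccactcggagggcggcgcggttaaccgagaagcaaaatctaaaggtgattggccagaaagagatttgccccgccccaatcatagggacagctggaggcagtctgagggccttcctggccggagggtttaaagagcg
Pycr1: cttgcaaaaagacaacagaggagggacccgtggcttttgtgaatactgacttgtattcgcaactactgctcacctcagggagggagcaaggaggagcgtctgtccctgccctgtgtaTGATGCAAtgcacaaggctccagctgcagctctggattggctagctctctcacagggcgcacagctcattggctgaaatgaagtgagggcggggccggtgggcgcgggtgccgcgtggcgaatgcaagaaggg

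The Gars sequence is chr6:55037781-55038030 (plus strand), with its match at bases -30 to -23 counted from the start. The Iars sequence is chr13:49681910-49682159 (plus strand), with its match at bases 8 to 15. The Tars sequence is chr15:11399629-11399878 (minus strand), with its match at bases -15 to -8, and the Yars sequence is chr4:129189683-129189932 (plus strand), with its match at bases 4 to 11. Aars, at chr8:111033622-111033871 (plus strand), held 2 matches, at bases -112 to -105 and 10 to 17. GENCODE M21 places the start of Aars upstream of that window, at 111033144, so it may not be the main promoter. Among the ATF4 response genes, Asns (chr6:7693180-7693429, minus strand) held its match at bases -23 to -16, Trib3 (chr2:152344031-152344280, minus strand) at bases 15 to 22, Chac1 (chr2:119351022-119351271, plus strand) at bases -193 to -186 and Pycr1 (chr11:120643719-120643968, minus strand) at bases -103 to -96. Of these 9 members 7 rose in the knockout and 2, Aars and Pycr1, did not pass the test. Of the 18 members with a window and no match, 8 rose, 2 fell and 8 did not pass. This split was made after the values were seen. Over all tested genes the shares were close. Of 348 tested genes with a match 16.4% rose, and of 11448 tested genes with a window and no match 16.2% rose. Cars, Hars, Lars, Mars, Nars, Rars, Vars and Wars had no entry in the promoter table. For Psat1 and Mthfd2, which held no match and rose, GENCODE M21 places the start upstream of the windows, at 15947337 and 83325908. The same was so for Qars, which held no match and did not pass, with a start at 108507706. The windows of Psat1, Mthfd2 and Qars may not be their main promoters.

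Depth recovered from the normalized counts was 30517967 and 32361940 reads in the Lats1/2 KO libraries and 27811313 and 25135964 reads in the controls. The labels were checked on Lats1, which had 751 and 661 normalized counts in the knockouts and 2316 and 2560.2 in the controls (log2 change -1.79, adjusted p = 0.00055 by limma). Lats2 had 295 and 254 in the knockouts and 273 and 287 in the controls, and reads over its deleted part alone were not analysed here. The tissue label was checked on 10 enterocyte markers, all detected. Their summed level was 818639 to 885095 in the knockouts and 773427 to 806869 in the controls. By limma 3 of the 10 rose, 2 fell and 5 did not pass, with log2 changes from -0.68 to 1.52. Over all tested genes 15.2% rose and 12.3% fell. Of 8 goblet markers 8 fell, with sums of 45114 to 67859.6 in the knockouts against 118964 to 137625 in the controls. Of 5 tested Paneth markers 4 fell, with sums of 1961 to 2299.7 in the knockouts against 25297 to 36221 in the controls. Of 6 enteroendocrine markers 6 fell, with sums of 3266 to 4207 in the knockouts against 13583.5 to 13658 in the controls. Of 10 cell cycle genes 7 rose, and 1 to 6 without a library (1 without KO library 1), with sums of 20634 to 22571 in the knockouts and 17410 to 17535 in the controls. Among cell types outside the epithelium, 3 of 6 fibroblast, 1 of 7 enteric neuron and glia, 2 of 5 endothelial and 2 of 5 tested leukocyte markers fell. The share of all tested genes that fell was 12.3%, near that of the neuron and glia markers. Fewer fibroblast and endothelial markers fell without either KO library. Smooth muscle markers overlapped between the groups in 6 of 6, while 68.3% of all tested genes did not overlap. Fibroblast sums were 15400.1 to 17259.9 in the knockouts and 19310.3 to 21030.0 in the controls, and neuron and glia sums 3142 to 3209.6 in the knockouts and 5440.5 to 6448 in the controls. Log2 changes of the neuron and glia markers ran from -2.62 to -0.19 around a median of -0.37, so their sums need not represent each marker. Endothelial sums were 3139 to 3414 in the knockouts and 3803 to 4446 in the controls, and leukocyte sums 6423 to 9074 in the knockouts and 10039 to 10226 in the controls. The tested leukocyte markers went both ways, with log2 changes from -1.39 to 0.94, and 0 rose past the test. Pancreatic acinar markers set Lats1/2 KO library 1 apart, with a sum of 1520.1 there, 12340 in KO library 2 and 8105 to 10748 in the controls. No marker of these lists was at 0 in every library. In such bulk tissue a change in RNA per cell and a change in the number of cells of a type cannot be told apart, and the part of these shifts in the results that follow was not tested.

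The cytosolic synthetases were higher in the Lats1/2 KO tissue in part of the set and lower past the test in none of it. Of 20 genes 11 rose, 0 fell and 9 did not pass an adjusted p of 0.05 by limma, against 15.2% of all tested genes that rose and 12.3% that fell. For this list and those of mitochondrial synthetases, partners, eIF2 and mTORC1 genes, where 0 genes fell, the count of falls was also 0 at an unadjusted p under 0.05, with edgeR and with DESeq2, while 1 mTORC1 gene was called lower without KO library 2. The median log2 change was 0.35, a factor of 1.27, while the median over all tested genes was -0.0015. The shares over all tested genes include genes of low level, where the SE was larger. With a filter of at least 50 in at least 2 libraries, 2434 of 13025 genes rose. Both KO libraries lay above both controls for 14 of the 20, below both for 0, and the groups overlapped for 6. Over all tested genes the KO libraries lay above in 34.9%, below in 33.4% and did not overlap the controls in 68.3%. The normalized counts of the 20 genes summed to 68707 and 70159 in the knockouts, and to 51622 and 52407 in the controls. The count of 11 became 7 without either KO library and 12 without control library 2. Without KO library 1, the one low in acinar markers, the median log2 change was 0.39, and the part of acinar RNA in these changes was not tested.

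**Figure D1:**
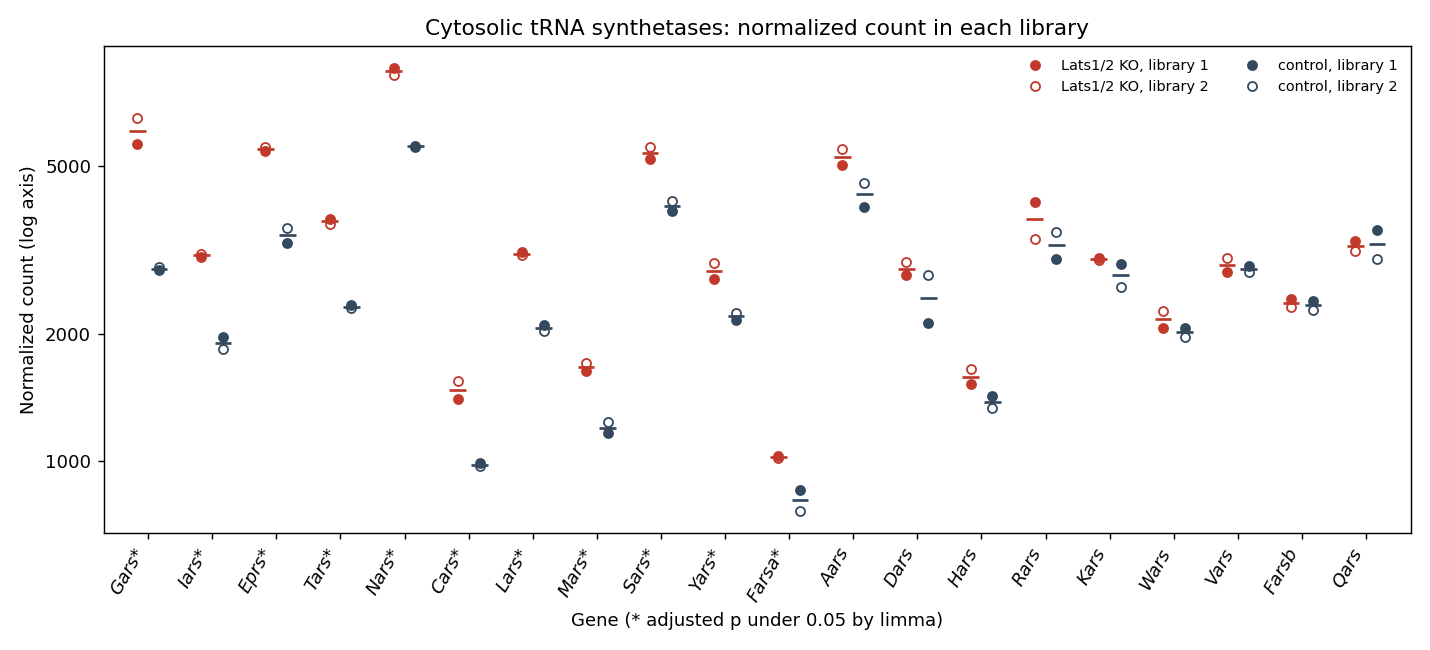
Normalized counts (log axis) of the 20 cytosolic synthetases in each library, ordered by log2 change. Red points are Lats1/2 KO and dark points control libraries, horizontal bars are group means (n = 2 each), and asterisks mark the 11 genes past an adjusted p of 0.05, whose KO points all lie above their control points.

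Gars, which charges tRNA with glycine in both cytosol and mitochondria, rose most of the synthetases. It lies on chromosome 6 (ENSMUSG00000029777, 55038007 to 55079500, plus strand) and had 5648 and 6515 normalized counts in the knockouts, against 2837 and 2885 in the controls. The groups were far apart, and KO library 2 was the highest. The log2 change was 1.08 ± 0.09 (SE), a 2.12-fold rise, with an adjusted p of 0.00134. Nars, the asparagine enzyme, had 8562 and 8264 in the knockouts and 5566 and 5603 in the controls. Tars, for threonine, had 3753 and 3651 in the knockouts and 2339 and 2303 in the controls, and Cars, for cysteine, had 1404 and 1544 in the knockouts and 986 and 970.4 in the controls. Replicates of each of these genes differed far less than the groups did. Their log2 changes were 0.59, 0.67 and 0.59, with adjusted p of 0.00271, 0.00185 and 0.00551 by limma. All 4 calls held without any single library.

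Of the enzymes that, like those 4, are not held in the large multisynthetase complex, 3 more rose by smaller amounts. Sars, for serine, had 5213 and 5547 normalized counts in the knockouts and 3914 and 4129.5 in the controls (log2 change 0.42, adjusted p = 0.0104). Yars, for tyrosine, had 2705 and 2944 in the knockouts and 2164 and 2244 in the controls (0.36, adjusted p = 0.019). Farsa, the alpha chain of the phenylalanine enzyme, had 1029.8 and 1015 in the knockouts and 853 and 762 in the controls (0.34, adjusted p = 0.0359). The groups did not overlap for any of the 3, but each call was lost without either KO library. Without KO library 1 and KO library 2 the adjusted p was 0.0522 and 0.0816 for Sars, 0.0631 and 0.126 for Yars, and 0.163 and 0.15 for Farsa. Farsa also missed the threshold without control library 2 (0.0835), with no filter and with DESeq2. Its partner Farsb, the beta chain that forms the same enzyme, stayed close in all libraries, with 2420.4 and 2314 in the knockouts and 2398 and 2286 in the controls. The Farsb log2 change was 0.02, with a 95% interval of -0.15 to 0.18.

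The free enzymes that did not pass were Aars, Hars, Wars, Vars and Farsb. Aars, for alanine, came closest. It had 5053 and 5504 normalized counts in the knockouts and 4014 and 4575 in the controls, which gave a log2 change of 0.30 (95% interval 0.08 to 0.52, adjusted p = 0.0588 by limma). The KO libraries were above both controls, and the gene passed without control library 2 (adjusted p = 0.0244), with DESeq2 and with limma scaled by library totals. Hars, for histidine, had a log2 change of 0.20 (adjusted p = 0.115). Wars, for tryptophan, had 2068 and 2269.8 in the knockouts and 2068 and 1969 in the controls, and Vars, for valine, had 2813 and 3036 in the knockouts and 2909 and 2805 in the controls. The groups overlapped for both genes, and 15.1% of the Aars exon bases overlap other annotated genes. The 95% intervals of the log2 change were -0.09 to 0.29 for Wars and -0.14 to 0.21 for Vars.

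The 8 synthetases of the multisynthetase complex, a cytosolic assembly that also holds the scaffold proteins encoded by Aimp1, Aimp2 and Eef1e1, split evenly. Eprs, which charges both glutamate and proline, had 5445 and 5559 normalized counts in the knockouts and 3292 and 3568 in the controls. Iars, for isoleucine, had 3050.4 and 3098 in the knockouts and 1969 and 1848 in the controls, and Lars, for leucine, had 3139 and 3075 in the knockouts and 2100.2 and 2029.9 in the controls. In each case the lowest KO library was well above the highest control. Their log2 changes were 0.68, 0.69 and 0.59, with adjusted p of 0.00246, 0.00212 and 0.00275 by limma, and all 3 calls held without any single library. Mars, for methionine, had 1638 and 1703 in the knockouts and 1162 and 1234 in the controls. Its log2 change of 0.48 (adjusted p = 0.00759) missed the threshold without KO library 1 (0.0508) and without KO library 2 (0.065). Mars and Ddit3 lie tail to tail on chromosome 10 and share 1.99% of the Mars exon bases, on opposite strands, and no source used here states whether counting used the strand.

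The other 4 enzymes of the complex did not pass. Qars, for glutamine, had 3322 and 3147 normalized counts in the knockouts and 3538 and 3019 in the controls, with a log2 change of -0.02 (95% interval -0.25 to 0.22). Kars, for lysine, had a log2 change of 0.13 (-0.07 to 0.33), Rars, for arginine, 0.20 (-0.11 to 0.51) and Dars, for aspartate, 0.24 (-0.09 to 0.57). Replicates of Rars and Dars differed widely, and Dars passed without control library 2 (adjusted p = 0.0175). By complex membership 4 of 8 enzymes rose inside it and 7 of 12 outside, with median log2 changes of 0.36 and 0.35. By enzyme class, which was assigned from textbook knowledge after the values were seen and leaves out Eprs because it joins both folds, 5 of 9 class I and 5 of 10 class II enzymes rose. The authors' deposited table also called 11 of the 20 synthetases at its adjusted p under 0.05, with Aars (0.0423) in place of Farsa (0.0544), while it called 23.0% of the genes it tested.

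Levels can be set against each other only per length. The length used joins the exons of all annotated transcripts of a gene and may exceed that of the transcripts expressed. The order of genes therefore depends on the annotation. Per kilobase of merged GENCODE M21 exons, Gars (1949.9 normalized counts per kilobase in the knockouts, 917 in the controls) and Nars (1932 in the knockouts, 1282 in the controls) led the synthetases in the knockout tissue. Nars was the highest and Gars the third in the controls, with Rars between them (1009). Cars (224 in the knockouts, 149 in the controls) and Farsa (225 in the knockouts, 178 in the controls) were the lowest in both groups. Farsb, the other chain of the Farsa enzyme, stood at 904 in the knockouts and 894 in the controls on this scale.

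Most synthetases of the mitochondrion are encoded by separate genes. Among 17 of them limma called 5 higher, 0 lower and 12 neither, and the median log2 change was 0.22, against 15.2% higher and 12.3% lower over all tested genes. Ears2, which charges mitochondrial tRNA with glutamate, had 1738 and 1968 normalized counts in the knockouts and 572 and 393 in the controls. That 3.89-fold difference (log2 change 1.96 ± 0.18 SE, adjusted p = 0.00208) exceeded that of any cytosolic synthetase and held without any single library. Yars2 had 566 and 589 in the knockouts and 416 and 384 in the controls (0.53, adjusted p = 0.0128), and Vars2 had 587 and 609.9 in the knockouts and 423 and 360.0 in the controls (0.61, adjusted p = 0.014). Both calls were lost without either KO library, and the count of 5 became 1 there. Of 5 tested synthetase partners 2 rose. Xpot, which exports tRNA from the nucleus, had 2542 and 2903 in the knockouts and 1818 and 1739.6 in the controls (0.61, adjusted p = 0.00645). Aimp2, the scaffold of the complex, had 489 and 557 in the knockouts and 335 and 294 in the controls (0.73, adjusted p = 0.0107, and 0.0715 without KO library 2), but 29.4% of its exon bases overlap Eif2ak1 on the other strand. Tarsl2, an enzyme related to Tars, had a log2 change of 0.28 (adjusted p = 0.148).

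**Figure D2:**
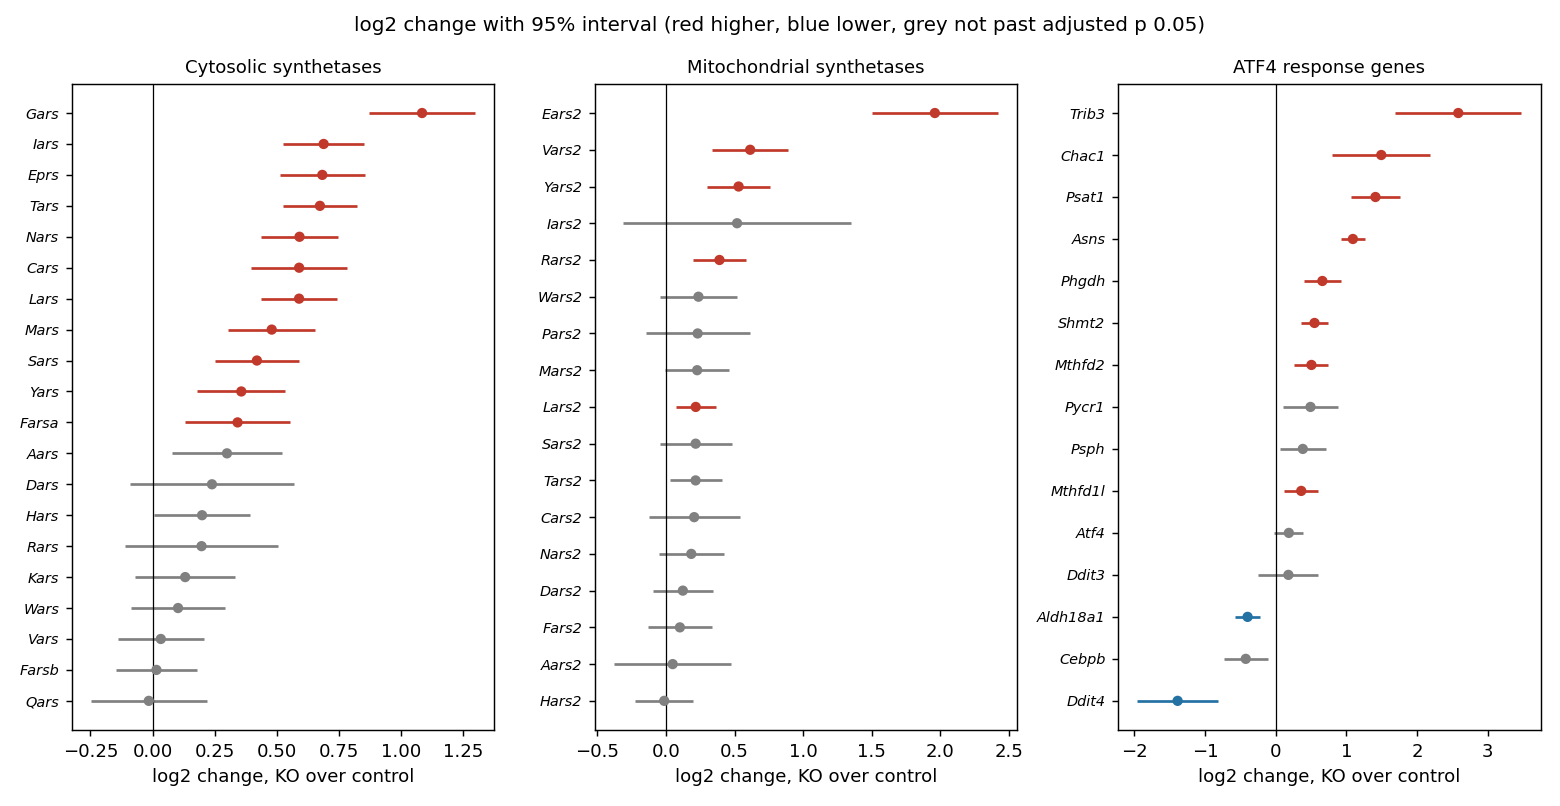
Change of each gene in 3 panels, as log2 of Lats1/2 KO over control on the log2(value + 1) scale, with 95% intervals by limma (n = 2 each). Red genes rose and blue genes fell past an adjusted p of 0.05, grey did not pass; Gars, Ears2 and Trib3 head their panels at 1.08, 1.96 and 2.59, and the x axes differ.

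Of the 15 ATF4 response genes more rose than fell. By limma 8 were higher, 2 were lower and 5 passed in neither direction. Their log2 changes ran from -1.39 to 2.59 around a median of 0.49. The share called over all tested genes was 27.5%, with 15.2% higher and 12.3% lower, so the falls were about as frequent as there. Both KO libraries lay above both controls for 11 genes and below for 3, and the groups overlapped for 1. Over all tested genes they lay above in 34.9% and below in 33.4%. The rises numbered 3 without KO library 1 and 4 without KO library 2, and the falls 1 without either and 3 without control library 2. The authors' deposited table called 9 of the 15, leaving out Mthfd1l (adjusted p = 0.0652).

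The transcripts of the transcription factors themselves did not pass. Atf4 (ENSMUSG00000042406, chromosome 15, 80255184 to 80257541) had 4985 and 5327 normalized counts in the knockouts and 4277 and 4795 in the controls. All KO values were above the controls, but the controls differed from each other by more than the lower KO value exceeded the higher control. The log2 change was 0.19 (95% interval -0.02 to 0.39, adjusted p = 0.147 by limma). Ddit3, which encodes the pro-apoptotic factor CHOP, had 1045 and 989 in the knockouts and 750.4 and 1072 in the controls. The groups overlapped, with control library 2 the highest, and the log2 change was 0.18 (-0.25 to 0.61, adjusted p = 0.474). Without that control library Ddit3 passed (adjusted p = 0.025), and 10.9% of its exon bases overlap other annotated genes, Mars among them. Cebpb, a bZIP partner of ATF4, had 428 and 417 in the knockouts and 629 and 511 in the controls. Its log2 change was -0.42 (-0.73 to -0.12, adjusted p = 0.0552, and 0.0198 without control library 2), and 20.7% of its exon bases overlap Tmem189.

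Trib3 and Chac1 of the ATF4 response list rose, and the activity of ATF4 itself was not tested. Trib3, a pseudokinase that feeds back on ATF4 and CHOP (ENSMUSG00000032715, chromosome 2, 152337422 to 152344032), had 390.4 and 410.2 normalized counts in the knockouts and 44.5 and 97.2 in the controls. The knockouts were close together, and control library 2 held more than control library 1. The log2 change was 2.59 ± 0.36 (SE), the largest of the 35 members by limma, and its adjusted p of 0.00636 stayed under 0.05 without any single library. Chac1, which degrades glutathione (ENSMUSG00000027313, chromosome 2, 119351229 to 119354381), had 177 and 155 in the knockouts and 44.5 and 75.4 in the controls. The 2.82-fold difference (SE 0.28 on the log2 scale, adjusted p = 0.0155) missed the threshold without KO library 1 (0.0852) and without KO library 2 (0.0652).

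Ddit4, also named REDD1, an inhibitor of mTORC1 that glucocorticoids and low oxygen induce as well as ATF4, fell. It lies on chromosome 10 (ENSMUSG00000020108, 59949669 to 59951834) and had 325 and 481 normalized counts in the knockouts, against 890.2 and 1207 in the controls. Every KO library was below every control, though replicates spread in both groups. Ddit4 was 2.62-fold lower (log2 change -1.39 ± 0.23 SE, adjusted p = 0.0107), a call that held without any single library.

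The asparagine enzyme and 2 of the 3 enzymes of serine synthesis rose. Asns, which makes asparagine (ENSMUSG00000029752, chromosome 6, 7675169 to 7693254), had 2217 and 2301 normalized counts in the knockouts and 1034 and 1082 in the controls. Replicates were nearly equal, and its adjusted p of 0.000765 was the smallest of the 35 members (log2 change 1.09 ± 0.07 SE, 2.13-fold). Of the 3 steps of serine synthesis, Phgdh, the entry enzyme, had 3268 and 3432 in the knockouts and 2337 and 1919 in the controls. Psat1, the transaminase of the next step (ENSMUSG00000024640, chromosome 19, 15904678 to 15947337), had 1682 and 2040.3 in the knockouts and 770.1 and 627 in the controls. The log2 changes were 0.66 for Phgdh (adjusted p = 0.00998) and 1.41 ± 0.14 (SE) for Psat1 (adjusted p = 0.00231). Psph, the phosphatase of the last step, had 418 and 514 in the knockouts and 344 and 367 in the controls, and did not pass (0.38, adjusted p = 0.0806). Asns and Psat1 held without any single library, while Phgdh missed the threshold without KO library 1 (0.0529) and without KO library 2 (0.0663).

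The mitochondrial folate enzymes, which turn serine into formate for nucleotide synthesis, were higher by smaller amounts. Shmt2, which takes a carbon from serine, had 1414 and 1401 normalized counts in the knockouts and 1003 and 921 in the controls. Mthfd2, the dehydrogenase, had 1194 and 1299 in the knockouts and 819 and 938 in the controls, and Mthfd1l, which releases formate, had 796 and 873 in the knockouts and 686 and 613 in the controls. The groups did not overlap for any of them. The log2 changes were 0.55, 0.51 and 0.36, with adjusted p of 0.00621, 0.0167 and 0.0439 by limma. Without KO library 1 the adjusted p was 0.0518, 0.0636 and 0.109, and without KO library 2 it was 0.0497, 0.104 and 0.216. Mthfd1l also missed the threshold without control library 2 (0.113), with no filter and with DESeq2.

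Proline synthesis did not move as a whole. Aldh18a1, which makes the precursor of proline and, in the intestine, of citrulline (ENSMUSG00000025007, chromosome 19, 40550257 to 40588463), was by far the most abundant of the 35 members per kilobase of exon, at 4259 normalized counts in the knockouts and 5614 in the controls. It had 17194 and 17495 normalized counts in the knockouts and 23359 and 22359 in the controls. It fell by 0.40 on the log2 scale (adjusted p = 0.0141), with no overlap of the groups, and missed the threshold without KO library 1 (0.103) and without KO library 2 (0.0917). Pycr1, which completes proline in mitochondria, had 158 and 139 in the knockouts and 109 and 102 in the controls (log2 change 0.49, adjusted p = 0.0667).

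**Figure D3:**
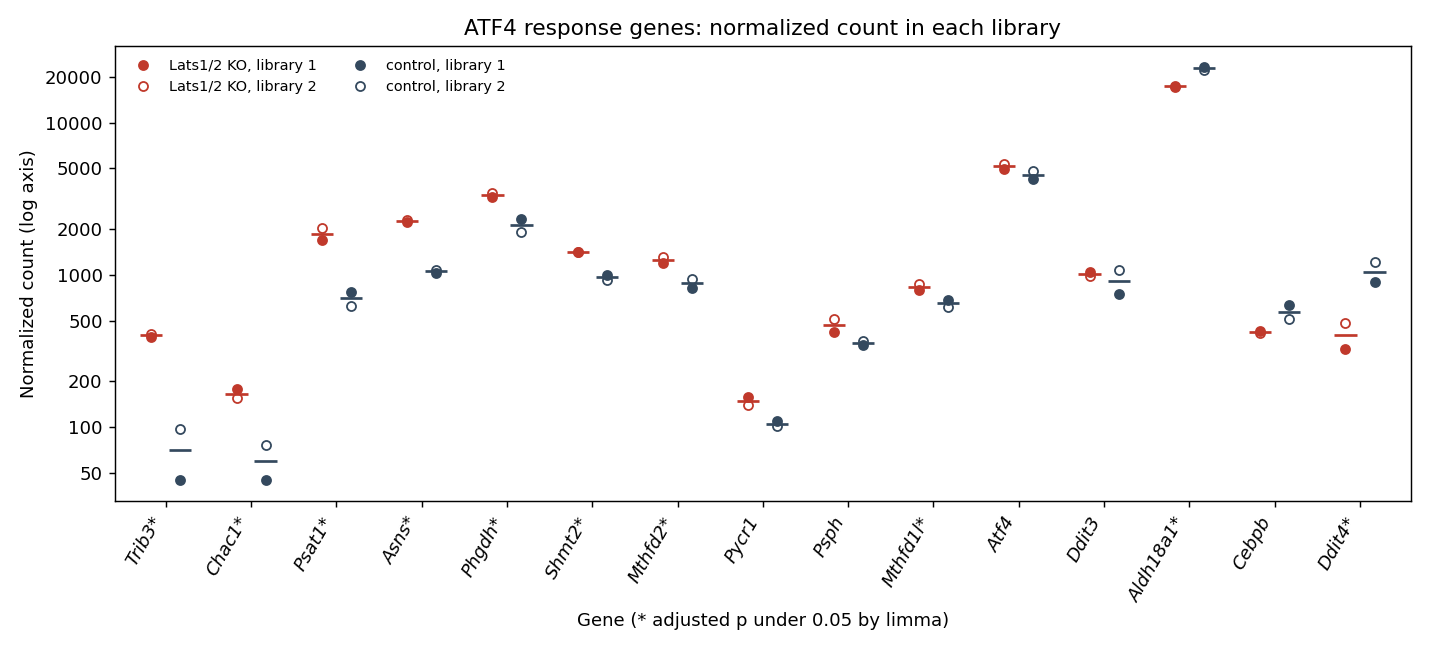
Normalized counts (log axis) of the 15 ATF4 response genes in each library, ordered by log2 change. Red points are Lats1/2 KO and dark points control libraries, bars are group means (n = 2 each); KO points lie well above control points for Trib3, Chac1, Psat1 and Asns and below them for Aldh18a1, Cebpb and Ddit4.

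Further genes of the ATF4 network came from a list of 29 partners and targets, of which 28 were tested. Limma called 13 higher, 3 lower and 12 neither, around a median log2 change of 0.45. The falls were about as frequent as over all tested genes (12.3%), where 15.2% were higher. Cth, which makes cysteine, had 1057 and 1038 normalized counts in the knockouts and 558 and 554 in the controls (0.91, adjusted p = 0.00141). Eif4ebp1, the repressor of cap-dependent translation, had 1373 and 1357 in the knockouts and 799 and 709 in the controls (0.86, adjusted p = 0.0024). Slc7a1, a carrier of cationic amino acids, had 1938 and 2126 in the knockouts and 1240.0 and 1273 in the controls (0.69, adjusted p = 0.00308). These 3 genes passed without any single library. The 3 that fell, named after their values were seen, were Vldlr (-0.96), a lipoprotein receptor, Cebpa (-0.35), a transcription factor, and Slc3a2 (-0.37), the shared heavy chain of amino acid exchangers. The Vldlr call was lost without KO library 1 or control library 1, and the Cebpa and Slc3a2 calls were lost without either KO library. Without KO library 2 the genes called lower were Vldlr, Nupr1 and Cbs, not the same 3. The rises numbered 9 to 14 without a library and the falls 0 to 3, with 0 without KO library 1.

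Genes of eIF2 and its regulation were higher in part. Of 17 genes of the eIF2 kinases, eIF2, its exchange factor, its phosphatases and their regulators, 10 rose and 0 fell, with a median log2 change of 0.42, against 15.2% and 12.3% of all tested genes. Eif2s2, the beta subunit of eIF2, had 4555 and 4003 normalized counts in the knockouts and 2175 and 2478 in the controls (0.88, adjusted p = 0.00344). Ppp1r15a, or GADD34, the stress-induced subunit that restores translation and is itself an ATF4 target, had 380.3 and 479 in the knockouts and 202 and 179 in the controls (1.16, adjusted p = 0.00543). Eif2b5, of the exchange factor eIF2B, had 2239.9 and 2222 in the knockouts and 1628 and 1562 in the controls (0.48, adjusted p = 0.00546, and 0.0508 without KO library 1). Of the kinases, all named after their values were seen, Eif2ak4, the sensor of uncharged tRNA, rose (0.63, adjusted p = 0.00733, and 0.0606 without KO library 2). Eif2ak3, the sensor in the endoplasmic reticulum, had a log2 change of 0.24 (adjusted p = 0.293), Eif2ak2 0.23 (0.087) and Eif2ak1 -0.02 (0.888). The count of 10 became 3 without KO library 1 and 4 without KO library 2.

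Other enzymes of folate, glycine and proline metabolism were divided. Among 20 tested, limma called 4 higher, 4 lower and 12 neither, around a median log2 change of -0.01. These counts were near the shares of all tested genes, 15.2% higher and 12.3% lower. Aldh1l2, a mitochondrial folate dehydrogenase, had 222 and 235 normalized counts in the knockouts and 27.9 and 19.4 in the controls (3.24 ± 0.23 SE, adjusted p = 0.00106), a 9.43-fold rise that exceeded those of all 35 members, and 14.1% of its exon bases overlap another gene. Mthfd1, the cytosolic counterpart of Mthfd2 and Mthfd1l, had 1832 and 1846 in the knockouts and 1178 and 1156 in the controls (0.66, adjusted p = 0.00221). Sdsl, related to serine dehydratase, had 149.9 and 192 in the knockouts and 482 and 449 in the controls (-1.45, adjusted p = 0.00271). The calls of all 3 held without any single library. The other falls were named after their values were seen. Prodh and Aldh4a1, which degrade proline, had log2 changes of -1.43 and -1.63, and 32.5% of the Aldh4a1 exon bases overlap another gene. Oat, which links ornithine to the product of Aldh18a1, had -0.52, and its call was lost without either KO library. The rises became 2 without either KO library.

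The remaining branches of the unfolded protein response were mixed. Among 17 genes limma called 5 higher, 2 lower and 10 neither, around a median log2 change of -0.02. Over all tested genes 15.2% were higher and 12.3% lower, and the falls were about as frequent as that. Ern2, the IRE1 isoform of goblet cells, had 49.96 and 85.8 normalized counts in the knockouts and 256 and 271 in the controls (-1.99, adjusted p = 0.00612), beside the goblet marker sums given above. The chaperones Hsp90b1 and Hspa5 had log2 changes of 0.47 (adjusted p = 0.00934) and 0.42 (0.0217). Hsp90b1 had 22571 and 24050.3 in the knockouts and 16754 and 16813 in the controls, and Hspa5 had 33602 and 36890.5 in the knockouts and 25845 and 26847 in the controls. The other fall was in Ern1, the widely expressed IRE1 gene, named after its value was seen (-0.44, adjusted p = 0.0314, lost without either KO library). Of the Hsp90b1 exon bases 15.7% overlap other genes. Both chaperone calls were lost without either KO library, where 0 genes of the list rose. Of 12 tested regulators of mTORC1, 2 rose and 0 fell, with a median of 0.06, and the rises were about as frequent as over all tested genes (15.2%). Rheb, its activator, had a log2 change of 0.35 (adjusted p = 0.019), Akt1s1, an inhibitory subunit, 0.27 (0.043), and Sesn3, a leucine-sensing inhibitor family member, 0.26 (0.0999). The number that rose there was 0 without either KO library.

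**Figure D4:**
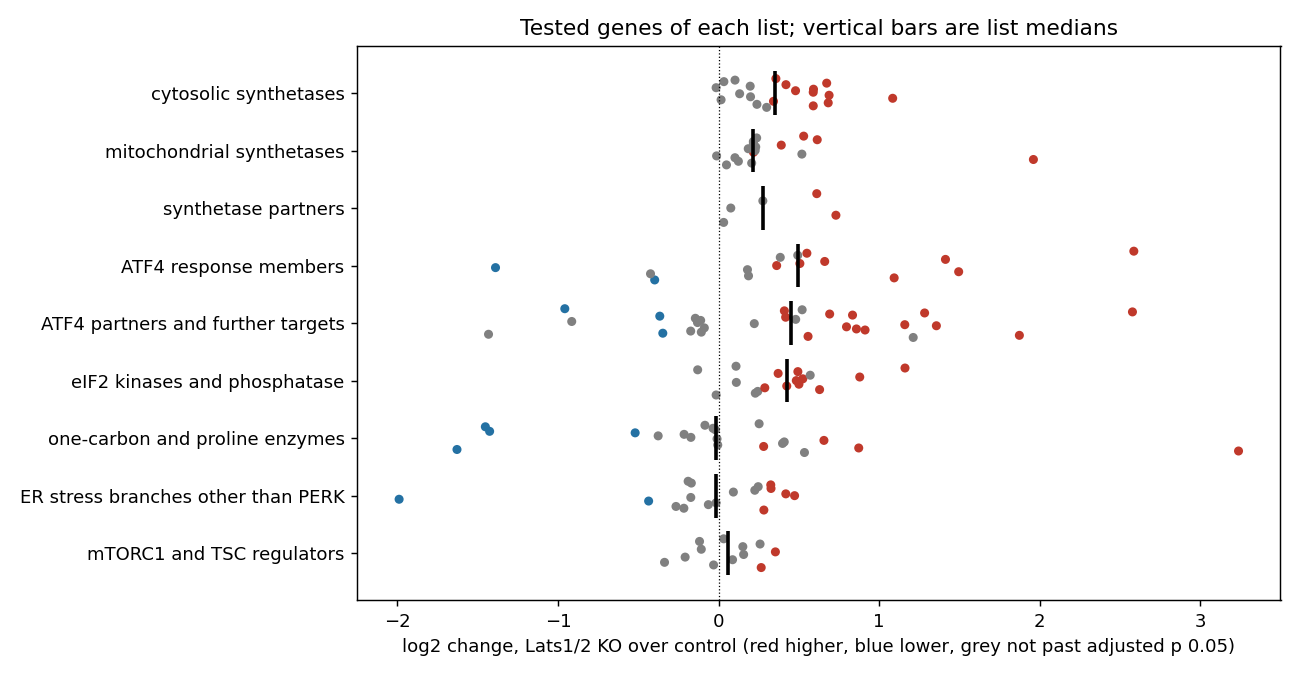
Each point is a tested gene, placed by its log2 change (Lats1/2 KO over control, log2(value + 1) scale), and rows are the 9 lists; black bars are medians. Medians lie at 0.35 for cytosolic synthetases, 0.49 for the ATF4 response genes, 0.45 for further ATF4 targets and 0.42 for the eIF2 genes, and between -0.02 and 0.28 for the other lists.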

How the data were processed

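Whole small intestine RNA of 2 Lats1/2 KO and 2 control samples was sequenced; per the submitters' processing notes STAR, featureCounts, DESeq2 and build GRCm38 were used, with versions and strand settings that the sources used here do not state. The deposited expression values are a normalized signal: the authors divided gene counts by a size factor of each library, per the submitters' processing notes and the values. The same deposited table holds the authors' log2 fold changes, linear fold ratios and adjusted p-values for mutant over wild type. All 100% of values were whole multiples of the smallest, within 0.001 reads, which gave the depth; edgeR with TMM on these reads called 4568 genes and limma 4508.

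Column names gave the group of a library and not its sample, so libraries are numbered in column order as names only. The labels do not say that each sample is a separate animal, so p-values measure only the spread between these samples. Values were tested as log2(normalized count + 1) by limma 3.58.1 (R 4.3.3), allowing the variance to follow the level, and p-values were Benjamini-Hochberg adjusted over the 16415 genes with at least 10 in at least 2 libraries; edgeR had been planned for raw counts. Fold changes on this scale understate those of low genes. The fit had 2 residual and 3.53 prior degrees of freedom, and the median SE fell from 0.35 in the lowest of 5 level bins to 0.07 in the highest. Group means have n = 2. Alternatives were 3 scalings or tests on recovered reads (edgeR 4.0.16, DESeq2 1.42.0), library totals, other filters and pseudocounts, and leaving out each library. Scripts were tested on simulated data. Positions and exon lengths are from GENCODE M21 (GRCm38), promoter sequences from RefSeq (GRCm38.p6). The handling of reads that match several places is not stated either.

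The members and lists were chosen with earlier results of these data known. Values per library are given for members past the threshold, Atf4, Ddit3, Asns and the 4 members of smallest change, and up to 3 genes per pathway list with the smallest adjusted p are named. Values per library of Aars, Cebpb, Psph and Pycr1 were added outside this rule, after they were seen. Others were named after their values were seen, and complex membership and enzyme class were assigned then too.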

Additional observations from a re-analysis of the deposited data

How the results depend on the processing

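No paired analysis was possible because the columns carry no replicate numbers of the labels. The 35 members kept their direction and their side of the threshold with edgeR on recovered reads (TMM or library totals), with pseudocounts of 0.5 and 5 and with a filter of 50. With no filter and with DESeq2, Farsa and Mthfd1l missed it, and Aars passed with DESeq2 and with limma scaled by library totals. Without KO replicate 1 or 2, 10 and 9 members lost their calls; the lone library is then assumed to vary like the other group. Leaving out a library gave 908 to 2171 higher and 864 to 1612 lower genes over all tested (2491 and 2017 with all libraries), 7 to 12 higher and 0 lower synthetases, and 3 to 8 higher and 1 to 3 lower ATF4 response genes. The number of lower genes was 1318 with no filter; the cause was not tested. In the lists of other genes the rises were 1 to 5 (mitochondrial synthetases), 1 to 2 (partners), 3 to 10 (eIF2), 0 to 4 (unfolded protein response, 2 with no filter) and 0 to 2 (mTORC1, 1 with no filter or DESeq2, with 0 to 1 falls). The falls in the unfolded protein response list were 1 to 3, and 1 with no filter.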

Other observations

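In some genes of the lists above a control library stood apart from the other 3 libraries, which were picked out after their values were seen. Iars2, which charges mitochondrial tRNA with isoleucine, had 4422 and 3906 normalized counts in the knockouts and 1999 and 4209.5 in the controls, so that control library 1 alone was low, and 24.2% of its exon bases overlap other genes. Eif2s3x, the X-linked gamma subunit of eIF2, had 1043 and 1021 in the knockouts and 536 and 899.5 in the controls. Aldh1l1, a cytosolic folate dehydrogenase, had 1747 and 1607 in the knockouts and 1838 and 727 in the controls, where control library 2 was the low one. None of the 3 passed the test by limma (adjusted p 0.296, 0.129 and 0.375).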
